A study of Rattus norvegicus with 9 samples.

Results

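Adipogenic transcription factors are the DNA-binding proteins that turn a stem cell of fat tissue into an adipocyte. The 9 genes described here are Pparg, Cebpa, Cebpb, Cebpd, Zfp423, Klf4, Klf5, Klf15, and Ebf1, taken by their symbols from the 35362 genes of the deposited table. All 9 were found, and all 9 were among the 14770 genes with enough counts to be tested. They were measured in SASCs, PASCs, and EASCs, the stem cells grown from the subcutaneous fat of the groin, the fat around the kidney, and the fat beside the testis of male Sprague Dawley rats aged 6 weeks. Each group has 3 samples of RNA from cells at passage 3, 9 samples in all, and the labels name no transgene and no drug treatment for any group. The cells grew in medium with serum, the protocol names no adipogenic induction and no cell sorting, and replicates are described as culture wells, 6 per group. Which wells the 3 samples of a group came from, and whether these held cells of different rats, is not stated. The p-values therefore measure the spread between these samples, which may be technical.

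In the textbook order of adipogenesis, Cebpb and Cebpd are switched on first by hormonal signals and then raise Pparg and Cebpa, which keep each other on and turn on the genes of the fat cell. Factors of the KLF family act at several points, with Klf4 and Klf5 early and Klf15 later, while Zfp423 and Ebf1 are known for committing precursor cells to the adipocyte fate and for raising Pparg. Before induction, Pparg and Cebpa are known to be lower than in adipocytes.

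The total counts of the samples ranged from 17591916 to 30299032. Genes of ribosomal RNA took between 10.4% and 15.5% of the SASCs counts, between 22.4% and 32.9% for PASCs, and between 15.9% and 40.3% for EASCs, so levels are given as CPM, a gene's counts in relation to a library size scaled by TMM, a method that a few abundant genes affect little. Markers of mesenchymal stem cells were present in every group, with 9 of 9 genes of a list at a mean above 1 CPM. Of these 9 genes, 6 were higher and 3 lower in EASCs than in SASCs at an adjusted p-value under 0.05, with a median log2 fold change of 0.82, and 6 were higher and 2 lower in PASCs, with a median of 0.51, where 69.7% and 69.2% of all genes passed in either direction. Eng, Itgb1, Cd44, Col1a1, and Col1a2 were higher in both, and Pdgfra and Pdgfrb were lower in both. Thy1 was lower in EASCs and higher in PASCs, and Nt5e was higher in EASCs and did not pass in PASCs. Pdgfra, a receptor of fat precursors, averaged 1543 ± 37.0 CPM in SASCs, against 278 ± 17.6 in PASCs and 235 ± 8.46 in EASCs (± SD, n = 3 each).

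Promoter windows from RefSeq on the rat build GRCr8 were used for 7 of the 9 genes, and those of Cebpd and Zfp423 were not analysed here. The 250 bases before the start of Pparg and Cebpa, which were low together in PASCs and EASCs, are shown with those of Cebpb, whose fold changes were smaller. Capitals mark the letters GGGCGG (the GC box) and CACCC on either strand, the kinds of letters to which KLF proteins bind. The Pparg window is chr4:150096808-150097057, the Cebpa window chr1:96896334-96896583, and the Cebpb window chr3:176816755-176817004, all on the plus strand.
Pparg: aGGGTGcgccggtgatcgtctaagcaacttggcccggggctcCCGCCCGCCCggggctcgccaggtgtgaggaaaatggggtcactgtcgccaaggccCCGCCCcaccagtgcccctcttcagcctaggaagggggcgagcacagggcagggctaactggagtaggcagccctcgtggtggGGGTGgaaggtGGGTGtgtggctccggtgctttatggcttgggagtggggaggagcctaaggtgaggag
Cebpa: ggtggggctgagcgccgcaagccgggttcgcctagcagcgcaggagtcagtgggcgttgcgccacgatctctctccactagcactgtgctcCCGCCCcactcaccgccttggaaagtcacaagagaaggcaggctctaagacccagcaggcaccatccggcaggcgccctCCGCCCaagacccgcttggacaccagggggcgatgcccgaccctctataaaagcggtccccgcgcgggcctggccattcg
Cebpb: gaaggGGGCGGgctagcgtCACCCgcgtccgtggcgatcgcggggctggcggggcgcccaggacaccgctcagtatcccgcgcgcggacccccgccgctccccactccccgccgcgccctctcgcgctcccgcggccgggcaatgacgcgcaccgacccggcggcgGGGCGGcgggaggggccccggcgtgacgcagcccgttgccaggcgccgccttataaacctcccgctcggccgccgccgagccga
In the Pparg window the letters of the GC box occur at 3 places, of which 2 overlap each other, and CACCC at 3. Cebpa has the GC box at 2 places and no CACCC, and Cebpb has the GC box at 2 places and CACCC at 1. Of the 7 windows, 3 hold the GC box and 5 hold CACCC, against 32.4% and 49.4% of the 27457 promoter windows of the same length. On either strand, the letters TATAAA stand in 3 of the 7 windows, those of Cebpa, Cebpb, and Klf4, and in 13.1% of all windows. They begin 35 bases before the start in Cebpa and 33 in Cebpb, forward in the window. In Klf4 they lie at 146 and 78 bases before the start, on the reverse strand of the window. The letters CCAAT stand in 2 windows, those of Klf5 and Klf15, and in 34.3% of all. A C/EBP motif of the letters TTGCNNAA was found in 0 of the 7 windows and in 9.20% of all, and an EBF motif of the letters CCCNNGGG in 0 of the 7 and in 11% of all. The share of G and C was 67.2% in both the Pparg and the Cebpa window and 80.0% in the Cebpb window, with a median of 52% over all windows.

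Of the 9 factors, 5 were downregulated DEGs in EASCs against SASCs, namely Pparg, Klf15, Ebf1, Cebpa, and Zfp423, and none was upregulated. In PASCs against SASCs 4 were downregulated DEGs, namely Pparg, Klf15, Cebpa, and Ebf1, and again none was upregulated. A DEG is a gene with a fold change above 2 and a Benjamini-Hochberg adjusted p-value under 0.05 in edgeR's quasi-likelihood test, and 14.2% of all genes tested were downregulated DEGs in EASCs and 14.9% in PASCs, or 27.8% and 26.9% with both directions counted. The median log2 fold change of the 9 factors was -1.47 in EASCs and -0.63 in PASCs, where that of all genes was 0.01 and -0.01. Without the fold change threshold, 8 factors were lower than in SASCs in EASCs and 8 in PASCs, against 34.3% and 34.6% of all genes, and 69.7% and 69.2% of all genes passed in either direction. The samples of the 2 groups did not overlap for those 8 factors, lower in EASCs or PASCs, as was the case for 35.8% and 36.0% of all genes. With 3 samples against 3, an exact permutation test of a single gene cannot give a two-sided p below 0.1. Both comparisons use the same SASCs. In a culture of mixed cells, fewer cells that express a gene and less RNA of that gene in each cell cannot be told apart by these data.

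**Figure D1:**
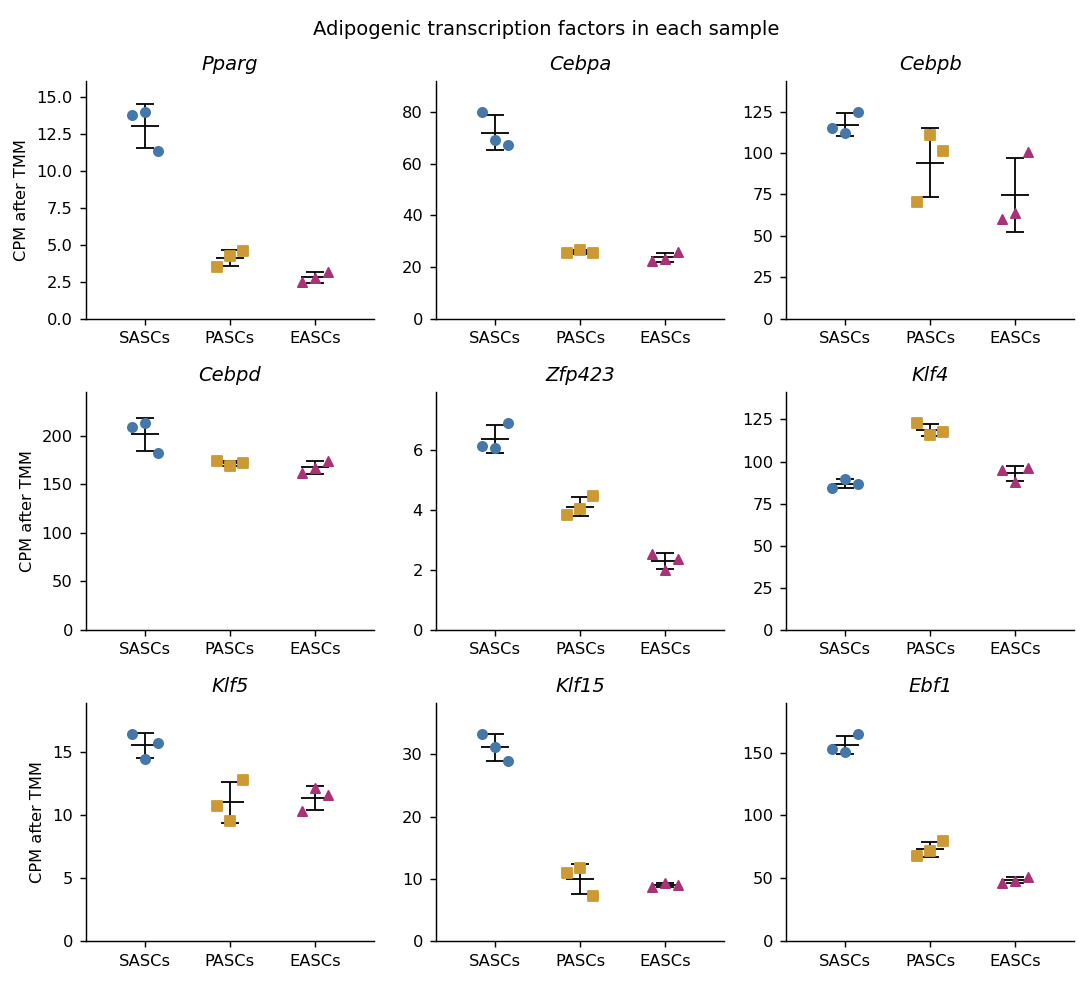
CPM after TMM of the 9 factors in every sample, with SASCs as circles, PASCs as squares, EASCs as triangles, and black bars for the mean ± SD of 3 samples. For 8 of the 9 factors all samples of PASCs and EASCs lie below those of SASCs, and Klf4 is highest in PASCs, with samples of SASCs and EASCs overlapping.

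Pparg encodes the nuclear receptor PPAR gamma, the factor without which no fat cell forms. It lies at chr4:147274057-147399383 (plus strand) on the rat build rn6, as do all gene positions that follow. Its level in SASCs was 13.8, 14.0, and 11.4 CPM in replicates 1 to 3. PASCs had 3.52, 4.26, and 4.61 CPM, and EASCs 2.47, 2.76, and 3.18 CPM. Every sample of SASCs was above every sample of PASCs, and these were in turn above every sample of EASCs. The log2 fold change was -2.23 in EASCs against SASCs (standard error, SE, 0.154, adjusted p = 5.69e-13) and -1.67 in PASCs (SE 0.146, adjusted p = 7.80e-11). Pparg in EASCs stood at 21.4% of its level in SASCs, and in PASCs at 31.3%. These values rest on 233 to 398 counts in SASCs and on 59 to 114 in the other samples.

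Cebpa encodes C/EBP alpha, the partner of PPAR gamma in the late phase of adipogenesis, and lies at chr1:91363492-91366164 (plus strand). SASCs had 80.1, 69.1, and 67.2 CPM, PASCs 25.5, 26.5, and 25.3 CPM, and EASCs 22.3, 23.1, and 25.8 CPM. Samples of PASCs and EASCs overlapped each other, and both were far below SASCs. Against SASCs the log2 fold change of Cebpa was -1.61 in EASCs (SE 0.0770, adjusted p = 1.67e-16) and -1.49 in PASCs (SE 0.0764, adjusted p = 8.26e-16).

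Cebpb and Cebpd, the early C/EBPs, had smaller log2 fold changes and were DEGs in neither comparison with SASCs when scaled by TMM. Cebpb, at chr3:164424106-164425933 (plus strand), was at 115, 112, and 125 CPM in SASCs. In PASCs it was at 70.7, 111, and 101 CPM, and in EASCs at 60.0, 63.6, and 101 CPM. Replicate 1 of PASCs was the lowest and replicate 3 of EASCs the highest of their groups, so that the coefficient of variation was 22.2% in PASCs and 30.0% in EASCs against 5.74% in SASCs. The log2 fold change was -0.65 in EASCs (SE 0.133, adjusted p = 1.00e-04), under the fold change of a DEG. With total counts in place of TMM it was -1.08 (adjusted p = 1.88e-10), a DEG, which brought the DEGs among the 9 factors in EASCs from 5 to 6, where the median of all genes was at -0.39. In PASCs it was -0.32 (adjusted p = 0.0346), a call that was lost without PASCs replicate 1 (-0.14, adjusted p = 0.323), without SASCs replicate 1 (-0.33, adjusted p = 0.0534), without SASCs replicate 3 (-0.27, adjusted p = 0.112), and with DESeq2 (-0.33, adjusted p = 0.252).

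Cebpd, at chr11:89008008-89009146 (plus strand), was at 209, 213, and 182 CPM in SASCs. The samples of PASCs were at 174, 169, and 172 CPM and those of EASCs at 162, 167, and 174 CPM. All 6 were below the lowest sample of SASCs, by a narrow margin. The log2 fold changes against SASCs were -0.27 in EASCs (SE 0.0582, adjusted p = 2.16e-04) and -0.23 in PASCs (SE 0.0582, adjusted p = 9.49e-04). With total counts in place of TMM they were -0.67 and -0.56, where the medians of all genes were at -0.39 and -0.33.

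Klf15, a KLF factor that rises late in adipogenesis and acts on Pparg and on glucose uptake, lies at chr4:122365092-122377690 (plus strand). The table also lists Prr21 across both Klf15 and Pparg, with 0 counts in all samples. Its entry runs from base 61220386 to 166045308 of chr4, so it covers far more than these genes. No other gene overlaps any of the 9 factors. SASCs had 33.2, 31.1, and 29.0 CPM of Klf15, PASCs 10.9, 11.8, and 7.25 CPM, and EASCs 8.67, 9.28, and 8.99 CPM. Replicate 3 of PASCs was the lowest of all 9 samples, and PASCs and EASCs, the cells of visceral fat, overlapped. The log2 fold change was -1.79 in EASCs (SE 0.119, adjusted p = 2.28e-13) and -1.62 in PASCs (SE 0.117, adjusted p = 1.42e-12).

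Klf4, an early KLF factor that activates Cebpb and is also one of the factors of pluripotency, was the only one of the 9 with a higher level outside SASCs that passed the test. It lies at chr5:72283311-72287669 (minus strand). SASCs had 84.4, 89.7, and 86.5 CPM, PASCs 123, 116, and 118 CPM, and EASCs 94.7, 87.8, and 96.4 CPM. The samples of PASCs were above all others, and 35.7% of all genes were higher in PASCs than in SASCs without overlap, while the Klf4 samples of SASCs and EASCs overlapped. In PASCs Klf4 differed by a log2 fold change of 0.45 (SE 0.0561, adjusted p = 6.13e-08), beside 34.6% of all genes higher in PASCs by that test. In EASCs it was 0.10 (95% interval -0.02 to 0.21, adjusted p = 0.126). Scaled by total counts without TMM, Klf4 in PASCs was at 0.13 (adjusted p = 0.509), where the median of all genes was at -0.33, and in EASCs at -0.31, where the median was at -0.39.

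Klf5, a KLF factor that the early C/EBPs switch on and that acts on the Pparg promoter, lies at chr15:83703796-83722922 (plus strand). It was at 16.4, 14.4, and 15.7 CPM in SASCs, 10.7, 9.53, and 12.8 CPM in PASCs, and 10.3, 12.1, and 11.6 CPM in EASCs. Both visceral groups were below SASCs without overlap, at log2 fold changes of -0.45 in EASCs (SE 0.113, adjusted p = 8.62e-04) and -0.51 in PASCs (SE 0.113, adjusted p = 2.85e-04).

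Zfp423, a zinc finger protein that marks committed preadipocytes, had the lowest level of the 9 for its length. It lies at chr19:20147201-20405999 (plus strand). SASCs had 6.12, 6.07, and 6.88 CPM, PASCs 3.83, 4.04, and 4.45 CPM, and EASCs 2.51, 1.99, and 2.37 CPM. The 3 groups did not overlap and fell in the order SASCs, PASCs, EASCs. The log2 fold change was -1.47 in EASCs (SE 0.176, adjusted p = 3.30e-08) and -0.63 in PASCs (SE 0.164, adjusted p = 0.00129), so that Zfp423 was a DEG in EASCs alone. Between EASCs and PASCs themselves the log2 fold change was -0.84 (adjusted p = 7.57e-04).

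Ebf1, an early B-cell factor that also acts upstream of Pparg and Cebpa in fat precursors, spans chr10:23654848-24051627 (plus strand). Its levels were 153, 150.5, and 165 CPM in SASCs, 67.8, 71.7, and 79.4 CPM in PASCs, and 46.4, 47.5, and 50.9 CPM in EASCs. As with Zfp423, the 3 groups did not overlap, and the order was the same. The log2 fold change was -1.69 in EASCs (SE 0.0642, adjusted p = 8.34e-19) and -1.10 in PASCs (SE 0.0624, adjusted p = 7.85e-15).

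**Figure D2:**
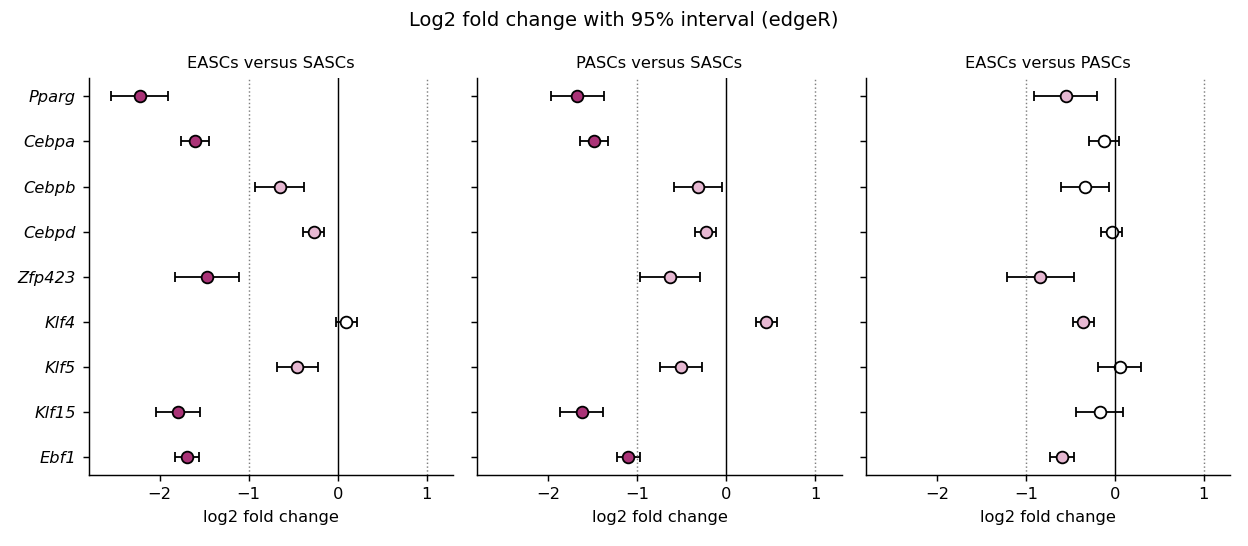
Log2 fold changes of the 9 factors in the 3 comparisons, with 95% intervals from edgeR before adjustment. Dark points are DEGs, pale points passed the adjusted p-value at a smaller fold change, white points did not pass, and dotted lines mark a fold change of 2, which no factor reaches between EASCs and PASCs.

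Between EASCs and PASCs, 0 of the 9 factors were DEGs by edgeR, beside 7.39% of all genes, and 0 were by DESeq2. At any fold change, 4 of the 9 had an adjusted p-value under 0.05, beside 30.7% of all genes. These 4, all lower in EASCs, were Zfp423 at a log2 fold change of -0.84 (SE 0.183, adjusted p = 7.57e-04), Ebf1 at -0.59 (SE 0.0649, adjusted p = 3.19e-08), Pparg at -0.55 (SE 0.171, adjusted p = 0.0145), and Klf4 at -0.35 (SE 0.0560, adjusted p = 1.31e-05). Their samples did not overlap. Of all genes, 14.5% passed with a lower level in EASCs, and 20.1% were lower there without overlap. The call of Pparg was lost without PASCs replicate 3 (adjusted p = 0.0565) and without EASCs replicate 1 (adjusted p = 0.0675). For Cebpb the difference was -0.33 (95% interval -0.61 to -0.06 before adjustment, adjusted p = 0.0587), and it passed without EASCs replicate 3 (-0.60, adjusted p = 9.56e-05) and without PASCs replicate 1 (-0.51, adjusted p = 0.00285). It also passed with the replicate number as a block (-0.35, adjusted p = 0.0104), with total counts (-0.44, adjusted p = 0.0447), and without the filter on low counts (-0.34, adjusted p = 1.42e-06). The differences of Cebpa (-0.12, 95% interval -0.29 to 0.05), Cebpd (-0.04, -0.16 to 0.08), Klf5 (0.05, -0.19 to 0.29), and Klf15 (-0.17, -0.43 to 0.10) did not pass, although that of Klf15 did without PASCs replicate 3 (-0.33, adjusted p = 0.0270). With all samples, the order SASCs, PASCs, EASCs therefore held with each step past the test for Pparg, Zfp423, and Ebf1. For Pparg the step from PASCs to EASCs was lost when either sample named above was left out. That step did not pass for Cebpa, Cebpd, Klf5, and Klf15, and for Cebpb it depended on the settings above.

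Levels of different genes can be compared when divided by the length of each gene. Cebpd was the most abundant factor in all groups, at 177 ± 14.8 CPM per kilobase in SASCs, 151 ± 2.33 in PASCs, and 147 ± 5.66 in EASCs (SD, n = 3 each), above 98.2%, 97.8%, and 97.6% of the genes tested. In SASCs Cebpb came next, with 64.1 ± 3.68 CPM per kilobase, followed by Klf4 with 36.7 ± 1.12. Outside SASCs these 2 had no fixed order, since Klf4 was above Cebpb in PASCs replicate 1 (51.9 against 38.7), EASCs replicate 1 (40.0 against 32.8), and EASCs replicate 2 (37.1 against 34.8). Cebpa was at 27.0 ± 2.6 CPM per kilobase in SASCs, 9.63 ± 0.249 in PASCs, and 8.88 ± 0.692 in EASCs. Pparg was at 5.55 ± 0.626 CPM per kilobase in SASCs, above 53.8% of the genes tested, and at 1.75 ± 0.236 in PASCs and 1.19 ± 0.151 in EASCs, above 32.4% and 26.2%. Zfp423 was the lowest of the 9 in each group, at 1.41 ± 0.101 CPM per kilobase in SASCs and 0.509 ± 0.0605 in EASCs.

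Ratios of chosen pairs of factors were read within each sample, with no test. They rest on the same counts as the fold changes above. Klf5, an early factor that was lower in both visceral groups, was not paired with a late factor. Per kilobase, Cebpd exceeded Cebpa by a ratio of 6.13 to 7.24 in the SASCs samples, 15 to 16 for PASCs, and 15.9 to 17 for EASCs. For Klf4 to Klf15 the ratio was 4.41 to 5.18 for SASCs, 17.1 to 28.2 for PASCs, and 16.4 to 19.0 for EASCs. A ratio within a sample does not depend on the scaling between libraries, and neither ratio in SASCs overlapped with those of the visceral groups. Cebpa to Pparg gave 4.35 to 5.20 for SASCs, 4.83 to 6.38 for PASCs, and 7.16 to 7.94 for EASCs, so that EASCs stood apart there and SASCs and PASCs overlapped.

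**Figure D3:**
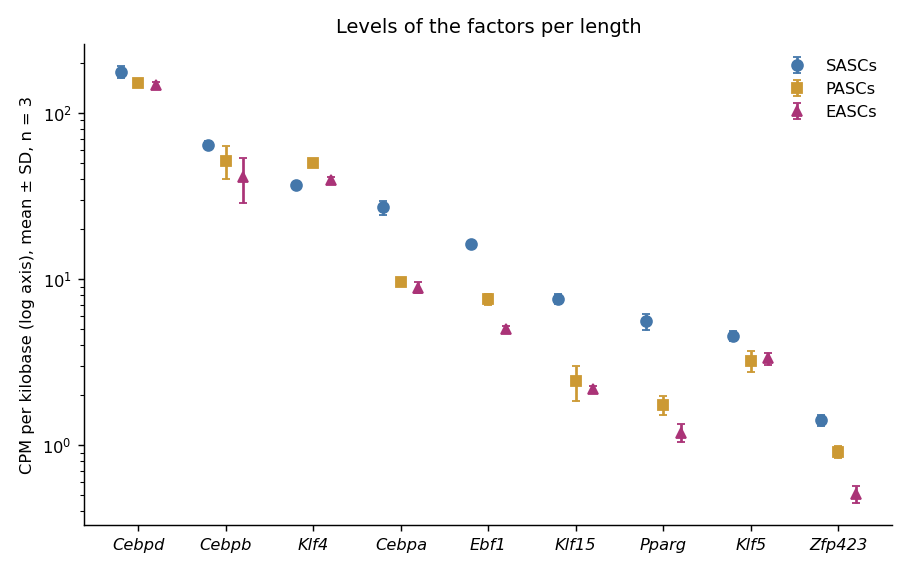
Mean level of each factor in CPM per kilobase of gene length on a log axis, with the SD of 3 samples, ordered by the level in SASCs. Cebpd is at 147 to 177 in the group means, and Zfp423 is the lowest at 0.509 to 1.41.

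The other genes of the adipogenic network were read from lists. Of 18 further factors that promote adipogenesis, all of which were tested, 7 were downregulated and 1 upregulated DEGs in EASCs against SASCs, and 4 and 1 in PASCs. Downregulated and upregulated DEGs made up 14.2% and 13.6% of all genes in EASCs, and 14.9% and 12.0% in PASCs. Egr2 (Krox20), an early inducer of Cebpb, averaged 31.6 ± 2.63 CPM in SASCs, against 2.15 ± 0.192 in PASCs and 3.0 ± 1.07 in EASCs (± SD, n = 3 each), with log2 fold changes of -3.87 in PASCs and -3.40 in EASCs. Klf9, another KLF factor, fell by 1.37 on the log2 scale in EASCs and by 1.52 in PASCs. The upregulated DEG was Prdm16, a factor of brown and beige fat cells, which rose from 1.65 ± 0.539 CPM in SASCs to 6.60 ± 0.377 in the PASCs and 6.36 ± 1.03 in the EASCs (± SD, n = 3 each). With total counts in place of TMM the DEGs of this list numbered 13 in EASCs and 10 in PASCs, in place of 8 and 5.

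Of 22 factors that hold adipogenesis back, 8 were upregulated and 2 downregulated DEGs in EASCs, and 6 and 1 in PASCs, beside 13.6% and 12.0% of all genes upregulated and 14.2% and 14.9% downregulated. Without the fold change threshold 9 were higher and 8 lower in EASCs, and 10 higher and 11 lower in PASCs, where 69.7% and 69.2% of all genes passed in either direction. Gata2, a GATA factor that represses Pparg in preadipocytes, averaged 0.422 ± 0.0308 CPM in SASCs, against 2.15 ± 0.586 in PASCs and 18.3 ± 0.441 in EASCs (± SD, n = 3 each), which gave log2 fold changes of 5.41 (EASCs, adjusted p = 7.07e-19) and 2.34 (PASCs, adjusted p = 1.17e-08) from 31 counts in SASCs together. Foxc2, a forkhead factor, rose by 3.71 and 2.95 on the same scale, from 49 counts in the 3 samples of SASCs together. Sox9, known for cartilage and for repressing Cebpb and Cebpd, rose by 2.73 and 2.27. In PASCs the largest changes also included Gata3 (2.65), from 21 counts in SASCs together, and Klf2 (2.42), a KLF factor that represses Pparg. The median log2 fold change of the list was 0.04 in EASCs and 0.01 in PASCs, close to that of all genes.

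Among 12 coregulators, 3 were downregulated DEGs in both EASCs and PASCs, and none was upregulated, beside 14.2% and 14.9% of all genes downregulated and 27.8% and 26.9% in either direction. They were Lpin1, which encodes lipin 1, and Ppargc1a and Ppargc1b, the coactivators PGC-1 alpha and PGC-1 beta. Lpin1 averaged 35.1 ± 3.0 CPM in SASCs, against 7.14 ± 0.720 in PASCs and 4.39 ± 0.503 in EASCs (± SD, n = 3 each). Ppargc1a had 29 to 41 counts per sample of SASCs but 0 to 11 for PASCs and 0 to 4 for EASCs, and Ppargc1b had 27 to 67, 9 to 14, and 6 to 17, so their fold changes are uncertain. The DEGs of this list numbered 7 in both comparisons when total counts replaced TMM.

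Of 18 genes that Pparg and Cebpa are known to switch on in adipocytes, 15 were tested, and 11 of these were downregulated DEGs in EASCs and 11 in PASCs, beside 14.2% and 14.9% of all genes, with none upregulated. At any fold change 1 gene was higher, Fabp5, a fatty acid binding protein that other cells also make, at log2 fold changes of 0.61 and 0.97. Lep, Pck1, and Pnpla2 had at most 6 counts in any sample and were not tested. The list summed to 2207 to 2258 CPM per sample of SASCs, 431 to 445 for PASCs, and 328 to 351 for EASCs. Lpl, the lipoprotein lipase that fat cells and their precursors secrete, made up most of it in SASCs, with an average of 1722 ± 36.3 CPM in SASCs, against 115 ± 15.9 in PASCs and 112 ± 2.58 in EASCs (± SD, n = 3 each). Plin1, the coat protein of lipid droplets, had log2 fold changes of -4.45 in EASCs and -2.93 in PASCs, and Retn, the gene of resistin, -4.45 and -3.74. Cidec, a lipid droplet protein, was at 39 to 99 counts in SASCs and at 2 to 4 in EASCs, where the level of 3 counts is between 0.122 and 0.134 CPM. Directly compared, 5 of these genes were downregulated DEGs in EASCs against PASCs, and 2.2% of all genes were. These genes are also the markers of fat cells, and their sum was highest in the group in which Pparg, Cebpa, Klf15, and Ebf1 were highest. The part of fat cells in the level of the 9 factors was not tested.

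**Figure D4:**
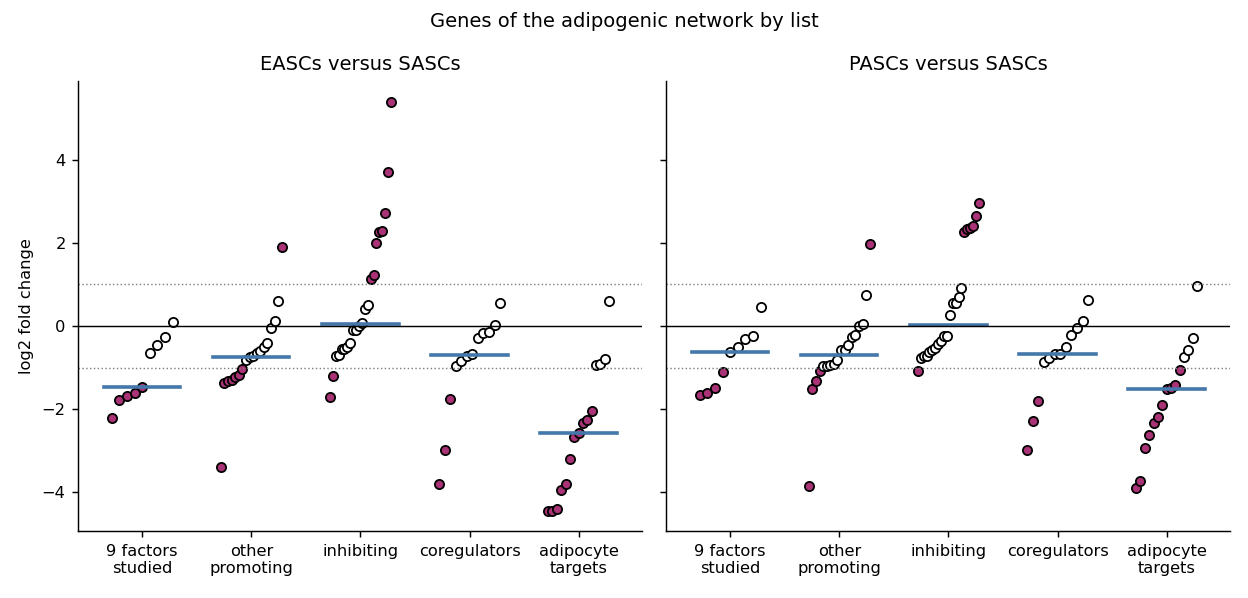
Log2 fold changes of the tested genes of the 5 groups of genes against SASCs, the 9 factors and 4 lists, in EASCs on the left and PASCs on the right, with dark points for DEGs, a blue line for the median of each list, and dotted lines at a fold change of 2. The medians of the adipocyte targets are -2.57 and -1.52, and those of the inhibiting factors 0.04 and 0.01.

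Markers of other cells also moved with the groups. Beside the counts that follow, 13.6% of all genes were upregulated and 14.2% downregulated DEGs in EASCs, and 12.0% and 14.9% in PASCs. The summed level of 5 smooth muscle markers lay between 159 and 170 CPM for SASCs, 2829 and 3126 for PASCs, and 6317 and 6685 for EASCs, with 5 of 5 upregulated DEGs in both, and that of 8 mesothelial markers was 20.0 to 21.4, 98.3 to 106, and 132 to 143 CPM. Of the mesothelial markers, 7 were tested, with 6 upregulated DEGs in EASCs and 7 in PASCs, and Krt18 had 0 counts in SASCs. Leukocyte markers, listed because macrophages are known to express Cebpa and Cebpb, summed to 26.1 to 32.3 CPM for SASCs, 92.2 to 93.9 for PASCs, and 141 to 152 for EASCs. Of these 7 genes, 5 were tested and 5 were upregulated DEGs in EASCs and 3 in PASCs, while the lymphocyte marker Cd3e was at 0 in every sample and Cd79a at no more than 1 count. The 5 endothelial markers summed to 41.6 to 44.2, 11.5 to 14.3, and 29.3 to 32.1 CPM, with 1 upregulated and 1 downregulated DEG in EASCs and 1 and 4 in PASCs. Of the Schwann cell markers, S100b, which other cells also make, fell by 4.33 on the log2 scale in EASCs and by 2.11 in PASCs, from 29.8 ± 1.83 CPM in SASCs to 1.48 ± 0.198 and 6.94 ± 0.429, the same order of groups as for Pparg, Zfp423, and Ebf1. Sox10, a defining marker, had at most 3 counts in any sample. The leukocyte sum was lowest where Cebpa was highest, and the part of any of these cells in the levels of the 9 factors was not tested.

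The genes whose levels followed those of the core factors most closely were found by Pearson's correlation of log2(CPM + 1) over the 9 samples, among 10167 genes at 5 CPM or more. They were Vasn (r = 0.995) and Cant1 (r = 0.994) for Pparg, Plekha4 and Glb1l (both r = 0.997) for Cebpa, and Myo9b (r = 0.937) and Cdan1 (r = 0.928) for Cebpb. Plekha4 averaged 30.1 ± 1.03 CPM in SASCs, against 8.55 ± 0.0477 in PASCs and 7.49 ± 0.851 in EASCs (± SD, n = 3 each). Among the 9 factors, Pparg followed Ebf1 (r = 0.981) and Cebpa (r = 0.981) most closely, and Klf4 had a negative r with each of the 8 others. The 9 points share 3 groups, so these values mostly describe the differences between the group means.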

How the data were processed

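Adipose-derived mesenchymal stem cells of 3 fat depots were sequenced as bulk RNA in 9 samples, 3 per group, and samples were grouped by their titles. The authors deposited raw counts per gene, 1 column per sample, with the length of each gene. According to the methods, paired-end reads were trimmed and aligned with TopHat to rn6, while the submitters' processing notes name TopHat2 and rn5; the positions in the table fit the chromosome names and extents of rn6, and the counting tool and strand setting are not given in the sources used here. The table was read as deposited. Genes with low counts were removed with filterByExpr, leaving 14770 of 35362, libraries were scaled by TMM, and a model with the group as its only term was fitted to all 9 samples with edgeR 4.0.16 in R 4.3.3 (quasi-likelihood test). P-values were adjusted by Benjamini-Hochberg over all genes tested, and the fold change threshold of 2 was that of the study's methods, which used another tool. The common biological coefficient of variation was 0.0685, and 3 counts corresponded to 0.104 to 0.159 CPM in the samples, a floor that covers counting error only. The script was tested on simulated data. Compared as raw counts scaled by total counts and not by TMM, no replicate pair agreed within sampling noise (chi-square per degree of freedom from 5.93 to 267). Differences in the share of ribosomal RNA enter these values. The highest was that of EASCs replicates 2 and 3, with shares of 15.9% and 40.3%. Alternatives were DESeq2 1.42.0, RLE factors, total counts, no filter, the compared groups alone, the replicate number as a block, any fold change, and leaving out each sample.

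The 9 factors and the gene lists were chosen with earlier results of these data known. All 9 factors are named. Of each list, up to 3 DEGs with the largest change in each comparison with SASCs are named, among genes with a mean of at least 1 CPM in the higher group. Fabp5, the genes of the marker lists, and the other genes of the families were named after their values were seen. For likeness, the 2 genes with the highest r are named. Promoter windows came from RefSeq on GRCr8, and no coordinates were converted between builds. The values of 2 marker genes, and the sum of their list, are not reported here.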

Additional observations from a re-analysis of the deposited data

How the results depend on the processing

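Of 324 member results recomputed, 320 kept their direction and their combined DEG call, which needs both the fold change and the adjusted p-value. Of the 324, 13 crossed the adjusted p-value of 0.05 taken alone, for Cebpb and Klf4 in PASCs against SASCs and for Pparg, Cebpb, and Klf15 between EASCs and PASCs. The samples share replicate numbers, but same-numbered samples did not deviate together (correlations from -0.0348 to 0.0380), so the numbers were not taken as pairs. With the replicate block the DEGs among the 9 factors stayed at 5, 4, and 0 in number, and Cebpb between EASCs and PASCs reached -0.35 (adjusted p = 0.0104).

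With total counts in place of TMM the median of all genes moved to -0.39 in EASCs and -0.33 in PASCs against SASCs, and the DEGs of all genes split into 1349 higher and 3426 lower in EASCs (2002 and 2103 with TMM) and 1262 and 3169 in PASCs (1779 and 2200 with TMM). There Klf4 turned to -0.31 in EASCs, Cebpb reached -1.08 and became a DEG in EASCs, and Klf5 between EASCs and PASCs turned to -0.028. Leaving out 1 sample put Klf5 there between -0.042, without PASCs replicate 2, and 0.17, without PASCs replicate 3. The DEGs of the other promoting factors numbered 13 in EASCs and 10 in PASCs, and those of the coregulators 7 and 7. Between EASCs and PASCs Cebpb passed at any fold change with total counts (adjusted p = 0.0447) and without the filter on low counts (adjusted p = 1.42e-06).

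Without the fold change threshold the genes called in EASCs, PASCs, and EASCs against PASCs numbered 8, 9, and 4 of the 9 factors, 16, 16, and 4 of the other promoting factors, 17, 21, and 15 of the inhibiting factors, and 11, 10, and 3 of the coregulators, and 12 of the adipocyte targets between EASCs and PASCs, beside 69.7%, 69.2%, and 30.7% of all genes. Leaving out 1 sample gave 0 to 1 DEGs among the other promoting factors between EASCs and PASCs, with 0 without PASCs replicate 1 or EASCs replicate 2. Low counts in 1 or more groups limit the fold changes of Ppargc1a, Ppargc1b, Cidec, Gata2, Gata3, and Foxc2, Lep, Pck1, and Pnpla2 could not be tested, and 3 samples a group limit all tests.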

Other observations

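The families of the 9 factors were also read whole, by symbol, a choice made after values were seen. Pparg has 2 relatives, Ppara and Ppard, the receptors known for fatty acid oxidation. Ppara averaged 17 ± 0.657 CPM in SASCs, against 4.92 ± 0.703 in PASCs and 4.92 ± 0.956 in EASCs (± SD, n = 3 each), with log2 fold changes of -1.80 in PASCs (adjusted p = 4.20e-12) and -1.78 in EASCs (adjusted p = 4.56e-12). Ppard was at 62.9 ± 2.86, 43.1 ± 2.27, and 27.0 ± 3.25 CPM, a DEG in EASCs only (-1.22, adjusted p = 6.99e-14), and its difference between EASCs and PASCs was -0.68 (adjusted p = 7.94e-08).

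Of the 4 EBF genes, all tested, 3 were downregulated DEGs in EASCs and 3 in PASCs against SASCs, beside 14.2% and 14.9% of all genes. Between EASCs and PASCs 1 was upregulated, Ebf4, from the low levels given below, and 1 downregulated, Ebf3. Of all genes, 7.39% were DEGs there in either direction and 2.2% were downregulated. Ebf3 had 139 ± 11.6 CPM in SASCs, against 29.1 ± 4.02 in PASCs and 8.72 ± 0.992 in EASCs (± SD, n = 3 each). For Ebf3 the log2 fold changes were -2.26 in PASCs, -3.99 in EASCs, and -1.73 between EASCs and PASCs (adjusted p = 1.33e-13 for the last). Ebf2, known for brown fat precursors, was highest in PASCs, at 32.8 ± 3.07 CPM against 19.4 ± 2.05 CPM in SASCs and 21.1 ± 1.67 CPM in EASCs. Ebf4 was low, at 1.22 to 2.1 CPM in the SASCs samples, 0 to 0.112 for PASCs, and 0.268 to 0.405 for EASCs, so that it was lowest in PASCs and not in EASCs, and the PASCs values are at or under the level of 3 counts. Per kilobase, Ebf3 made up 54.1% to 56.6% of the EBF family for SASCs, 26.6% to 29.6% for PASCs, and 14.3% to 16.8% for EASCs. The share of Ebf1 was 34.6% to 35.7%, 39.9% to 41.4%, and 46.5% to 48.5%, while its own level in EASCs was 30.9% of that in SASCs.

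Of the 17 KLF genes 14 were tested, with 4 downregulated DEGs and 1 upregulated DEG in EASCs against SASCs and 3 and 1 in PASCs, beside 14.2% and 13.6% of all genes in EASCs and 14.9% and 12.0% in PASCs. Klf6, one of the downregulated DEGs in both, averaged 259 ± 9.88 CPM in SASCs, against 121 ± 7.23 in PASCs and 114 ± 8.74 in EASCs. Cebpg, a C/EBP that lacks an activation domain, was higher in PASCs (log2 fold change 0.43, adjusted p = 4.73e-07) and EASCs (0.37, adjusted p = 6.26e-06) than in SASCs, under the fold change of a DEG. Per kilobase, Cebpa made up 8.94% to 10.2% of the C/EBP family for SASCs, 3.97% to 4.30% for PASCs, and 4.06% to 4.11% for EASCs.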
